A study of Mus musculus with 8 samples.

Results

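The genes described here encode the Wnt ligands, the Frizzled and LRP receptors, the secreted antagonists of the Dkk and Sfrp families with Frzb and Wif1, and 6 intracellular members of the pathway (Ctnnb1, Axin1, Axin2, Lef1, Tcf7l1 and Tcf7l2). They were chosen by symbol alone, from probe sets that the platform annotation assigns to a single gene, and came to 47 of 18193 genes, read by 94 of 45037 probe sets. The rule itself uses no measured value. The 2 probe sets of Fzd10os, a transcript from the opposite strand of Fzd10, were not counted, and Tcf7 was not analysed here.

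The series holds 8 Affymetrix mouse expression arrays of total RNA, with 4 in the group Ctrl and 4 in the group Exp. The labels give no genotype, strain, treatment, time or age for either group, so what sets Exp apart from Ctrl, and what both share, is not stated. One label field names the trigeminal ganglion, which holds the sensory neurons of the face, and another names brain and adrenal medulla. Arrays are numbered 1 to 4 in each group. No label ties an array to an animal of its own, so p-values measure only the spread between these arrays. All 8 markers of sensory neurons passed the filter on low signals, as did 1 of 4 brain markers and 3 of 4 adrenal medulla markers on the array. The filter kept 27022 of 45037 probe sets, and each marker was read in its brightest probe set. All 10 fibroblast and meninges markers and all 10 skeletal muscle markers passed too, so passing does not settle which tissue was used. Signal of the Y-linked gene Eif2s3y was low in Ctrl 3, Exp 1 and Exp 4 (7.13, 8.68 and 7.45 on the log2 scale) and at 12.32 or above in the other arrays. The ratio of 3' to 5' signal of the actin control, a sign of RNA quality, was 22.0, 20.3, 20.3 and 19.8 in Ctrl 1 to 4 and 20.9, 25.5, 23.0 and 24.5 in Exp 1 to 4. It was thus higher in Exp 2, 3 and 4 than in every Ctrl array. In all 8 arrays, Ctrl as well as Exp, this ratio was 19.8 or above, so signal was much stronger at the 3' end of the actin control. What this means for probe sets away from the 3' end was not tested.

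Wnt proteins are secreted lipid-modified signals that bind Frizzled receptors together with the co-receptors Lrp5 and Lrp6. In the canonical branch this stops the destruction of beta-catenin, the product of Ctnnb1, by a complex built on Axin, and beta-catenin then acts with Lef1 and the Tcf factors on target genes such as Axin2. Sfrp proteins, Frzb and Wif1 bind Wnt ligands outside the cell, and Dkk1, Dkk2 and Dkk4 bind the LRP co-receptors. In the embryo Wnt signals act in the neural crest and cranial placodes, from which the trigeminal ganglion forms, and Fzd3 takes part in axon guidance.

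Promoter sequences are shown for the 4 members with the lowest p-values described below and for Axin2, the feedback target of the canonical branch, since the text turns on these genes. They are the 150 bases before the annotated start, 5′ to 3′ on the gene's strand, from RefSeq on GRCm38.p6, where 32 of the 47 members had an entry. The windows are chr3:132085142-132085291 for Dkk2, chr7:98834962-98835111 for Wnt11 (the upstream of 2 listed starts), chr3:83766171-83766320 for Sfrp2, chr10:121033854-121034003 for Wif1 and chr11:108920199-108920348 for Axin2, all on the plus strand. Capitals mark TATAAA and the core letters bound by Tcf and Lef factors, CTTTGAA or CTTTGAT, on either strand.
Dkk2: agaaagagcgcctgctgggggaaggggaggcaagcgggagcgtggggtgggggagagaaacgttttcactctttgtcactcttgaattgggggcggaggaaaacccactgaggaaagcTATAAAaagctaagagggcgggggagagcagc
Wnt11: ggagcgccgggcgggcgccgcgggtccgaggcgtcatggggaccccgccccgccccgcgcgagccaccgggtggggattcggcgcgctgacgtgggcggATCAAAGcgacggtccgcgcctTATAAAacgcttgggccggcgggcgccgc
Sfrp2: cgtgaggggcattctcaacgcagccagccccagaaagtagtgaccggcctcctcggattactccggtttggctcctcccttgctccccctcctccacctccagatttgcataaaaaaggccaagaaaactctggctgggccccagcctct
Wif1: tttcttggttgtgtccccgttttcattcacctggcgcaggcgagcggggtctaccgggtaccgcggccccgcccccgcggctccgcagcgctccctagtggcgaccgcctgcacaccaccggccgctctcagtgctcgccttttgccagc
Axin2: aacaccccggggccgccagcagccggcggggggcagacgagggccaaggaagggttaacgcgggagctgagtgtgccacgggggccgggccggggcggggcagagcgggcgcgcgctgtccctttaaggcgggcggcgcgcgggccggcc
Dkk2 and Wnt11 carried TATAAA starting 32 and 29 bases before the start, and Wnt11 carried CTTTGAT on the opposite strand 51 bases before it. Over the 250 bases before each start, TATAAA occurred in 8 of 40 member promoters (20%) and in 12.4% of all 32851 promoters. CTTTGAA or CTTTGAT occurred in 3 of 40 (7.5%), those of Wnt5b, Wnt11 and Dkk1, and in 7.48% of all promoters. Axin2, Sfrp2 and Wif1 had neither within the bases shown. The median GC content of member promoters was 67.4%, and that of all promoters was 52.4%. These matches describe the letters only and were set against no measurement of binding.

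Values are log2(signal + 16) after quantile normalization, and a difference is Exp minus Ctrl on that scale, with its standard error (SE) from limma. A probe set was tested where its mean over the 8 arrays reached 8.45, the 40th percentile, and this left 48 of the 94 member probe sets and 32 of the 47 genes. Of the 19 ligands 8 were tested, of the 12 receptors 10, of the 10 antagonists 8, and all 6 intracellular members. The other 15 genes had mean values between 5.99 and 8.35 in their brightest probe set, the one with the highest mean. They were Wnt1, Wnt2, Wnt2b, Wnt3, Wnt3a, Wnt4, Wnt8b, Wnt9b, Wnt10a, Wnt10b, Wnt16, Fzd10, Lrp5, Dkk1 and Dkk4. The values carry no detection call, so a low signal does not show that a transcript was absent.

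No member was called as different between Exp and Ctrl. At a false discovery rate of 5% in limma, 0 of 48 member probe sets passed, with adjusted p = 0.999 as the lowest, against 1 of 27022 (0.0037%) over all tested probe sets. At an unadjusted p below 0.05 there were 4 member probe sets (8.33%), 3 higher and 1 lower in Exp, where 4.69% of all tested probe sets reached it, 2.18% higher and 2.5% lower. These 4 were the antagonists Dkk2, Sfrp2 and Wif1 and the ligand Wnt11. The excess depended on the filter and on single arrays. With no filter on low signals 4.26% of member probe sets and 4.93% of all reached that p, without Ctrl 1 the shares were 8.33% and 7.19%, and without Exp 1 they were 18.8% (9 probe sets) and 4.67%. Exp and Ctrl did not overlap in 2 member probe sets (4.17%), those of Wif1 and Fzd5, against 2.34% of all. In the brightest probe sets 20 genes had a higher mean in Exp and 12 a lower one, with a median difference of 0.04, beside -0.01 over all tested probe sets. The median absolute difference was 0.14 over the 32 genes and 0.11 over all tested probe sets.

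**Figure D1:**
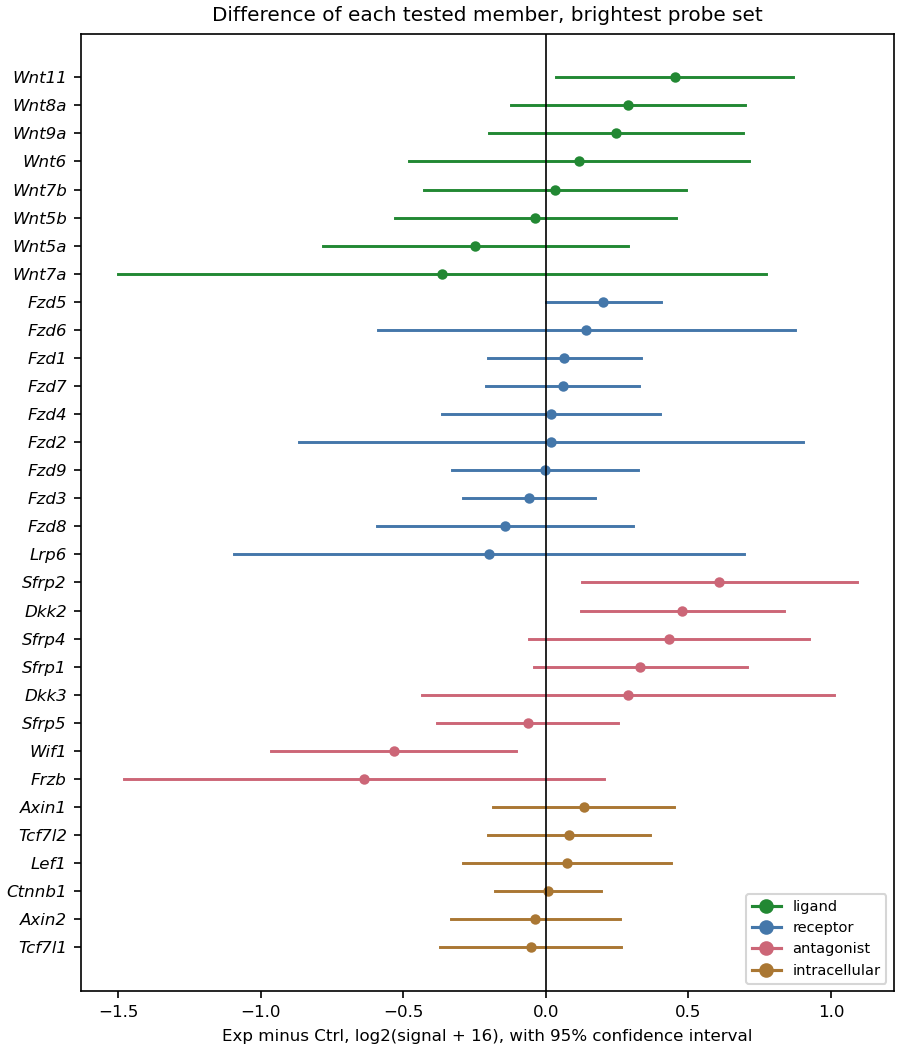
Exp minus Ctrl of each of the 32 tested members in its brightest probe set on the log2(signal + 16) scale, with 95% confidence intervals from limma (n = 4 per group), coloured by role. Antagonists spread from -0.64 (Frzb) to 0.61 (Sfrp2), and the intervals of Sfrp2, Dkk2, Wnt11 and Wif1 leave out 0.

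Among the 8 tested ligands, 5 had a higher and 3 a lower mean in Exp, with a median of 0.07. Wnt11, a ligand mostly of the non-canonical branch, read 9.21, 8.53, 8.98 and 9.12 in Ctrl 1 to 4 and 9.02, 9.49, 9.62 and 9.51 in Exp 1 to 4. Exp 2, 3 and 4 lay above every Ctrl array, and Exp 1 lay among them. Its difference was 0.45 (SE 0.18, a 1.37-fold difference, limma unadjusted p = 0.0363, adjusted p = 0.999). Its unadjusted p stayed below 0.05 in 3 of the 8 fits that left out 1 array, and without Ctrl 2, the lowest array, the difference was 0.31 (limma unadjusted p = 0.0928). The arrays Exp 2, 3 and 4 also had the highest actin ratios, whose part in this difference was not tested.

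Wnt8a (0.29, SE 0.18) and Wnt9a (0.25, SE 0.20) had higher means in Exp. Wnt7a, known from developing brain and skin, had a mean difference of -0.36 with an SE of 0.50. Exp 3 read 7.004, and the other 7 arrays ran from 8.32 to 9.45. Wnt5a, the main non-canonical ligand, differed by -0.25 (SE 0.24). Wnt6 (0.12), Wnt7b (0.03) and Wnt5b (-0.04), with SEs of 0.26, 0.20 and 0.22, were nearer to 0. No ligand had more than 1 tested probe set, so none of these values has a second reading above the filter on low signals. In the fit without a filter, further probe sets of Wnt5a differed by -0.23, -1.05 and -0.38, and those of Wnt7a by -0.74 and 0.50. Further readings of Wnt5b (0.81), Wnt6 (0.56), Wnt7b (0.60) and Wnt9a (0.23) were higher in Exp. The SEs of these readings ran from 0.29 to 0.84. In the RefSeq gene order 4 pairs of ligands are direct neighbours, namely Wnt6 with Wnt10a, Wnt3a with Wnt9a, Wnt9b with Wnt3 and Wnt10b with Wnt1, and no pair had both partners tested.

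Among the 10 tested receptors, 6 had a higher and 4 a lower mean in Exp in the brightest probe set, with differences from -0.20 to 0.20 and none called. Fzd5, a receptor of canonical ligands, read 9.92, 9.89, 9.77 and 9.80 in Ctrl 1 to 4 and 9.997, 9.99, 10.11 and 10.09 in Exp 1 to 4. All 4 Exp arrays were above all 4 Ctrl arrays, by a small step of 0.20 (SE 0.09, 95% confidence interval -0.0002 to 0.40, limma unadjusted p = 0.0502, adjusted p = 0.999). The other tested Fzd5 probe set differed by 0.05 (SE 0.21), and its groups overlapped.

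Fzd3 had the most readings among the receptors, and its 4 tested probe sets differed by -0.06 (SE 0.10), 0.01 (SE 0.13), -0.12 (SE 0.11) and 0.15 (SE 0.18). Fzd1 (0.06, SE 0.12), Fzd7 (0.06, SE 0.12), Fzd9 (0.00, SE 0.14) and Fzd4 (0.02, SE 0.17) were close to 0, and for each of these 4 the 95% interval lay within -0.36 to 0.40 in the brightest probe set. The other tested Fzd4 probe set differed by -0.14 (SE 0.14, interval -0.44 to 0.17). Fzd8 differed by -0.14 (SE 0.20) and, in its other probe set, by -0.42 (SE 0.24). Fzd6, a receptor known from hair and skin polarity, differed by 0.14 (SE 0.32), and its values ran from 9.90 in Ctrl 2 to 11.495 in Exp 4. Its other tested probe set differed by -0.17 (SE 0.18), in the opposite direction. The intervals of Fzd6 (-0.59 to 0.87), Fzd2 (-0.87 to 0.90) and Lrp6 (-1.09 to 0.70) were wide.

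Fzd2 varied strongly within both groups. Its brightest probe set read 14.33, 13.05, 13.89 and 12.67 in Ctrl 1 to 4 and 13.99, 12.79, 13.41 and 13.83 in Exp 1 to 4, so the groups overlapped almost fully and the difference was 0.02 (SE 0.39). The other tested Fzd2 probe sets, with differences of -0.12 (SE 0.15) and -0.30 (SE 0.22), ranged less.

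Lrp6, the canonical co-receptor, read 11.15, 11.51, 11.37 and 11.87 in Ctrl 1 to 4 and 11.92, 11.26, 11.91 and 10.02 in Exp 1 to 4. Exp 4 lay 1.13 below the next lowest array, whereas Exp 1 and Exp 3 were above every Ctrl array. The difference was -0.20 (SE 0.39, limma unadjusted p = 0.627), and without Exp 4 it was 0.22 (limma unadjusted p = 0.351), so its sign rests on 1 array.

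The antagonists showed the widest differences of the 4 roles, with a median absolute difference of 0.45 over 8 genes, against 0.25 for ligands and 0.06 for receptors and for intracellular members. Means were higher in Exp for 5 and lower for 3, so they had no common direction. Differences of at least 0.5 in either direction were seen in 5 member probe sets (10.4%), where 3.43% of all tested probe sets reached this size, and all 5 read antagonists, namely Sfrp2, Wif1, Frzb and, in 2 probe sets, Sfrp1. Whether antagonists differ from the other roles was not tested.

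Sfrp2, a secreted Frizzled-like protein made by mesenchyme, read 10.24, 10.28, 10.19 and 10.69 in Ctrl 1 to 4 and 10.43, 10.91, 11.04 and 11.46 in Exp 1 to 4. Exp 2, 3 and 4 were above every Ctrl array, and Exp 1 lay below Ctrl 4. The means were 10.35 ± 0.23 in Ctrl and 10.96 ± 0.42 in Exp (SD, n = 4 each), a difference of 0.61 (SE 0.21, 1.52-fold) that did not pass (limma unadjusted p = 0.0189, adjusted p = 0.999). Dkk2, which binds Lrp6 and can act for or against the pathway, read 10.96, 10.88, 11.26 and 10.91 in Ctrl and 11.46, 11.10, 11.62 and 11.75 in Exp. Here too 3 of 4 Exp arrays were above every Ctrl array, and Exp 2 lay below Ctrl 3. For Sfrp2, as for Wnt11, the 3 arrays above Ctrl were those with the highest actin ratios, and the part of RNA quality was not tested. The Dkk2 difference was 0.48 (SE 0.16, 1.39-fold, limma unadjusted p = 0.0142, adjusted p = 0.999).

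Wif1, the Wnt inhibitory factor, went the other way, with 9.96, 9.47, 9.51 and 9.58 in Ctrl 1 to 4 and 9.35, 9.07, 8.61 and 9.35 in Exp 1 to 4. All Exp arrays were below all Ctrl arrays. The difference was -0.53 (SE 0.19, 1.45-fold, limma unadjusted p = 0.0202, adjusted p = 0.999). Without Exp 3 it was -0.37, and without Ctrl 1 its unadjusted p was 0.0559. Frzb, another Sfrp-like protein, known from cartilage, read 11.83, 10.29, 11.11 and 10.17 in Ctrl and 10.20, 9.68, 10.26 and 10.72 in Exp. Ctrl 1 and Ctrl 3 were above every Exp array, and the other Ctrl arrays lay among them. The difference was -0.64 (SE 0.37, limma unadjusted p = 0.121), and it was -0.31 without Ctrl 1.

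**Figure D2:**
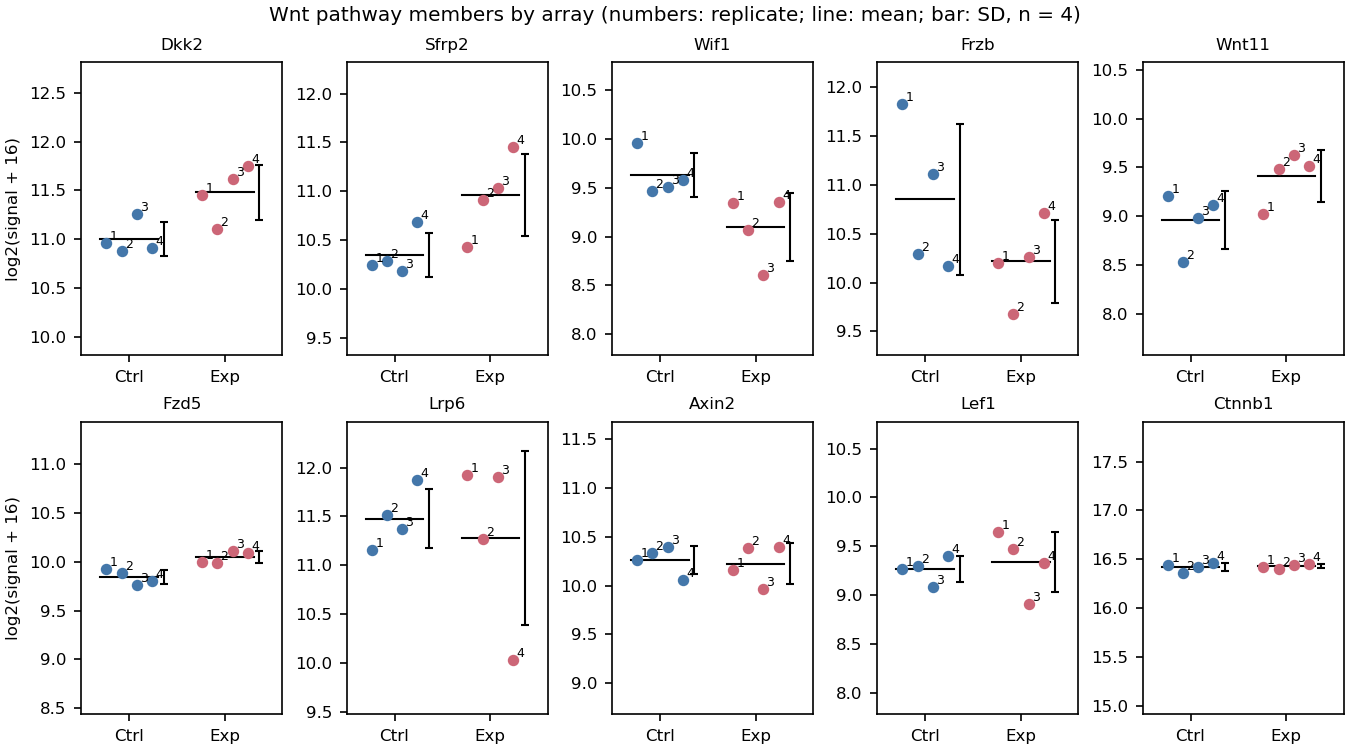
Values of log2(signal + 16) on each array for 10 members in their brightest probe sets, with the replicate number beside each point, the group mean as a line and the SD (n = 4) as a bar; each panel spans 3 log2 units. Groups do not overlap for Wif1 and Fzd5, 3 of 4 Exp arrays lie above all Ctrl arrays for Dkk2, Sfrp2 and Wnt11, and Exp 4 stands apart for Lrp6 at 10.02.

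Sfrp4 differed by 0.43 (SE 0.22), with Exp 3 at 11.35 and the other Exp arrays between 10.34 and 10.69. Dkk3, a divergent member of its family, differed by 0.29 (SE 0.32) and was at 11.715 in Exp 2 against 10.15 to 10.32 in the other Exp arrays, a high value that its other probe set shared (9.999 in Exp 2, 8.34 to 8.88 in the rest of Exp). The difference of that other Dkk3 probe set was -0.16 (SE 0.32). Sfrp5 differed by -0.06 (SE 0.14).

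The 4 tested probe sets of Sfrp1 did not move together. The brightest (1428136_at) read 12.75, 12.90, 13.01 and 12.37 in Ctrl 1 to 4 and 12.99, 12.93, 13.03 and 13.40 in Exp 1 to 4, a difference of 0.33 (SE 0.16, limma unadjusted p = 0.0746). The next (1448395_at) read 12.21, 11.90, 11.84 and 12.66 in Ctrl and 11.70, 11.88, 11.85 and 10.23 in Exp, a difference of -0.74 (SE 0.37, limma unadjusted p = 0.0777). Ctrl 4 was thus the lowest array in the first and the highest in the second, and Exp 4 the reverse.

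The third Sfrp1 probe set (1438620_x_at, of a class that can also bind other transcripts) followed the second, with 11.29 in Ctrl 4 and 9.43 in Exp 4, and differed by -0.55 (SE 0.30). The fourth (1460187_at) differed by 0.01 (SE 0.14). Without Exp 4 the difference of 1428136_at was 0.23, that of 1448395_at was -0.34 and that of 1438620_x_at was -0.30. Without Ctrl 4 the difference of 1428136_at was 0.20 (limma unadjusted p = 0.198). Within each array, the log2 ratio of the first to the second probe set was 1.07 higher in Exp (Ctrl -0.29 to 1.16, Exp 1.06 to 3.17, exact two-sided permutation p = 0.0571, smallest possible 0.0286). Over the 16 such pairs of probe sets within the 10 genes that have several, a comparison made after the values were seen, the adjusted p was 0.549. The estimates for Sfrp1 thus had both signs, and no tested probe set reached an unadjusted p below 0.05 in the main limma fit. The actin ratio was 19.8 in Ctrl 4, 25.5 in Exp 2 and 24.5 in Exp 4, and 1448395_at read 12.66, 11.88 and 10.23 in these arrays. The part of RNA quality in these readings was not tested.

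The intracellular members were near 0. Ctnnb1, the gene of beta-catenin, read 16.44, 16.36, 16.42 and 16.46 in Ctrl 1 to 4 and 16.42, 16.40, 16.44 and 16.45 in Exp 1 to 4, and differed by 0.01 (SE 0.08, 95% confidence interval -0.18 to 0.19, limma unadjusted p = 0.920). Its other tested probe sets differed by -0.07 (SE 0.21) and 0.05 (SE 0.17). The transcript level says nothing about the stability of the protein, which is where Wnt signals act.

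Axin2, a direct target of the canonical branch, read 10.26, 10.33, 10.40 and 10.06 in Ctrl and 10.16, 10.38, 9.97 and 10.40 in Exp, with overlapping groups. Its difference was -0.04 (SE 0.13, 95% confidence interval -0.33 to 0.26). Lef1, which is both a factor and a target of the branch, read 9.27, 9.30, 9.08 and 9.40 in Ctrl and 9.64, 9.47, 8.91 and 9.33 in Exp, a difference of 0.08 (SE 0.16, interval -0.29 to 0.44). Exp 1 was its highest and Exp 3 its lowest array. Axin1, the scaffold of the destruction complex, differed by 0.13 (SE 0.14), Tcf7l2 by 0.08 (SE 0.13) and Tcf7l1, a repressing Tcf factor, by -0.05 (SE 0.14) and 0.21 (SE 0.13) in its 2 tested probe sets. In the brightest probe sets, the intervals of Ctnnb1, Axin2 and Lef1 leave out a change of 0.5 in either direction. That of another Ctnnb1 probe set (1450008_a_at, -0.56 to 0.41) does not.

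Outside the symbol rule, a list of 60 further pathway genes was read, with 59 present on the array and 53 tested. Each was read in its brightest probe set only. None passed in limma (0 of 53, lowest adjusted p = 0.999), 25 were higher and 28 lower, the median was -0.02, and 4 (7.55%) had an unadjusted p below 0.05, against 4.69% of all tested probe sets. Exp and Ctrl did not overlap in 3 of 53 (5.66%, against 2.34% of all), with Celsr3 lower in Exp and Gsk3b (0.36, SE 0.17) and Ror2 (0.20, SE 0.10) higher. Celsr3, a planar polarity cadherin needed with Fzd3 for axon tracts, read 11.79, 12.05, 12.03 and 12.05 in Ctrl and 11.72, 11.57, 11.52 and 11.67 in Exp, with no overlap, and differed by -0.36 (SE 0.10, limma unadjusted p = 0.00677). Gpc3, a glypican that binds Wnt ligands, differed by 0.47 (SE 0.15, limma unadjusted p = 0.0146). Daam2, a formin downstream of Dishevelled, differed by -0.48 (SE 0.17, limma unadjusted p = 0.0197). Apcdd1, a membrane inhibitor of Wnt signals, differed by -1.11 (SE 0.47, limma unadjusted p = 0.0422), with 14.64, 12.29, 13.74 and 14.19 in Ctrl and 12.12, 12.68, 12.42 and 13.21 in Exp. Its Ctrl 2 lay among the Exp arrays. Of further feedback targets, named here for their role and outside the naming rule, Nkd1 differed by -0.03 (SE 0.20), Znrf3 by 0.09 (SE 0.19), Notum by 0.25 (SE 0.26) and Lgr5 by -0.34 (SE 0.28).

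Member probe sets varied within groups somewhat more than the rest. The median within-group SD was 0.28 over the 48 and 0.23 over all tested probe sets, and 9 of the 48 (18.8%) exceeded the 90th percentile of all, 0.445. These 9 read Wnt7a (SD 0.85), Lrp6 (0.67), Fzd2 (0.66), Frzb (0.62), Sfrp1 (0.62 and 0.50), Dkk3 (0.54 and 0.53) and Fzd6 (0.54).

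Markers of other cell types varied between arrays as well, and none was called. An unadjusted p below 0.05 was reached by 1 of 8 sensory neuron, 1 of 6 Schwann cell, 0 of 6 satellite glia, 2 of 6 epithelial and 1 of 4 endothelial markers. Of the 8 sensory neuron markers 4 were higher and 4 lower in Exp, with a median difference of -0.002. Uchl1, among those lower and named after its values were seen, read 12.47 to 13.35 in Ctrl and 12.15 to 12.24 in Exp, with no overlap. Of 10 fibroblast and meninges markers, all tested, 7 were higher and 3 lower in Exp and none had an unadjusted p below 0.05. Their summed signal ran from 110823 to 146087 in Ctrl and from 95573 to 166366 in Exp, and their mean deviation was highest in Exp 2 (0.50), the array in which Dkk3 was highest. Skeletal muscle markers all had higher means in Exp (10 of 10), 3 with an unadjusted p below 0.05 and none called, with a summed signal of 6022 to 9630.4 in Ctrl and 3942 to 62875 in Exp. Their mean deviation was 1.99 in Exp 3, the array in which Sfrp4 and Wnt11 were highest and Wif1 lowest, and -0.98 in Exp 4, in which Sfrp2 and Dkk2 were highest.

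Of the 8 epithelial markers 6 were tested (not Krt8 and Krt14), 5 of these higher in Exp, with sums of 5824 to 7080.4 in Ctrl and 4779 to 10263 in Exp. Grhl2, among those higher, read 9.01 to 9.37 in Ctrl and 9.43 to 9.78 in Exp, with no overlap. Of the 6 endothelial markers on the array 4 were tested (not Pecam1 and Tie1), 3 of them lower in Exp, with sums of 6229 to 10456 in Ctrl and 5902 to 10277 in Exp. The tested endothelial marker that was higher, Cdh5, read 9.18 to 9.46 in Ctrl and 9.86 to 10.12 in Exp, with no overlap. Grhl2 and Cdh5 were named after their values were seen. Of the 6 Schwann cell markers tested 5 were lower in Exp, with sums of 98127 to 107040 in Ctrl and 89019 to 105447 in Exp. The 1 not lower was Gap43, also a growth cone gene and part of these sums, at 14.90 to 15.30 in Ctrl and 14.88 to 15.30 in Exp. Of the 6 satellite glia markers tested 5 were lower, with sums of 119723 to 122958 in Ctrl and 118155 to 125386 in Exp. The satellite glia sums rest mostly on Fabp7, the 1 marker not lower, at 16.53 to 16.65 over the 8 arrays. Glul, the next brightest, read 13.89 to 14.17, so these sums say little about the 5 lower markers. Sums and mean deviations cover all markers of a list that are on the array, tested or not. In total RNA of a tissue, fewer cells of a type and less RNA per cell cannot be told apart. The part of these cell types in the differences of Dkk2, Sfrp2, Sfrp4, Wif1, Dkk3 and Wnt11 was not tested.

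**Figure D3:**
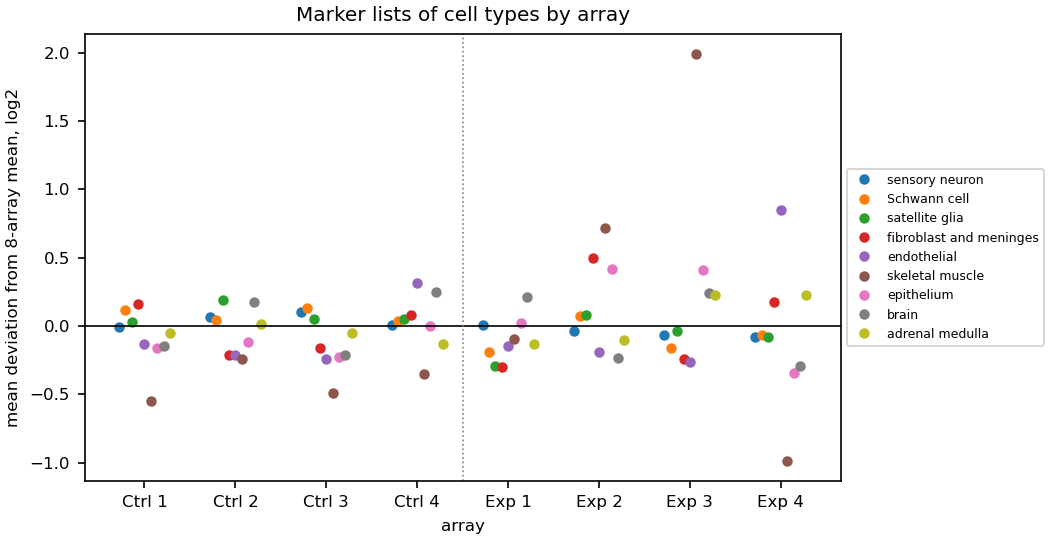
Mean deviation of each list of cell type markers (all those on the array, tested or not) from its 8-array mean, in log2 units, on each array. Skeletal muscle stands highest in Exp 3 (1.99) and lowest in Exp 4 (-0.98), while the mean over the 8 sensory neuron markers stays between -0.08 and 0.10.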

How the data were processed

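Probe set signals of 8 arrays were used as the deposited values, linear intensity values with 1 value per probe set and array. The method by which the authors derived signals from the scans was not given in the sources used here. No value was at or below 0. Of 45101 probe sets 64 controls were left out, and signals were taken as log2(signal + 16) and quantile normalized, since array medians differed by up to 0.203. The contrast Exp minus Ctrl was fitted in limma 3.58.1 under R 4.3.3 (lmFit and eBayes, two-sided, Benjamini-Hochberg over all 27022 tested probe sets). Fold changes are those of signal + 16 and understate the change of low signals. The number of arrays limits precision, with a median SE of 0.154.

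Symbols came from the platform annotation, and all 94 member probe sets matched RefSeq (GRCm38.p6) by identifier. The members and lists were chosen with earlier results of these data known. Values in every array are given for members with an unadjusted p below 0.05, groups without overlap or a difference of at least 0.5 in any tested probe set, and for Ctnnb1, Axin2, Lef1 and Lrp6. Other arrays are quoted where single values stand apart, as chosen after they were seen. Pathway genes outside the symbol rule are named where their unadjusted p is below 0.05. On simulated data with changes of 0.5, 1, 1.5 and 2 in 50 of 27022 probe sets each, the comparison recovered 16%, 68%, 90% and 96%. All changes were upward, in 1 data set with independent noise, on probe sets drawn from all those tested. Member probe sets had a median SE of 0.18, against 0.15 over all tested, so recovery among members may be lower.

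Alternatives were no normalization or median centring, pseudocounts of 1 and 64, a 60th percentile filter or none, the trend and robust options of eBayes, a replicate block, Eif2s3y as a covariate, a gene's mean over probe sets, and leaving out each array.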

Additional observations from a re-analysis of the deposited data

Results flagged for a closer look

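In each group of 4 arrays, the tested member probe sets were examined for an array that stood apart from the other 3 by more than the 95% limit of Dixon allows. There were 6 such arrays in 96 groups, and chance alone gives about 1 in 20 (4.8 here). In Exp, Dkk3 (1448669_at) was high in Exp 2 at 11.7 (the others 10.15 to 10.32). Sfrp1 was low in Exp 4 at 10.2 (1448395_at, the others 11.70 to 11.88) and, in another probe set (1460187_at), high in the same array at 9.41 (the others 9.01 to 9.07). In Ctrl, Axin1 was low in Ctrl 1 at 11.7 (the others 11.98 to 11.995), Fzd3 was high in Ctrl 2 at 14.8 (the others 14.59 to 14.60) and Fzd8 was high in Ctrl 2 at 11.6 (the others 10.99 to 11.06).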

How the results depend on the processing

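Over 13 member probe sets and up to 17 alternatives each, 213 of 218 differences kept their sign and stayed uncalled in limma, and 5 changed sign. With 1 array left out, Ctnnb1 ran from -0.011 (without Ctrl 2) to 0.022, Axin2 from -0.10 to 0.050 (without Exp 3, and 0.0083 without Ctrl 3), Lef1 from -0.027 (without Exp 1) to 0.22 and Lrp6 from -0.41 to 0.22 (without Exp 4). The number of member probe sets called was 0 in every alternative run. The single call over all probe sets became 0 with no filter, with the filter at the 60th percentile and with the Eif2s3y covariate, and without 1 array it ran from 0 to 1. With the replicate number as a block it was 0 too, and the block gave 3 member probe sets with an unadjusted p below 0.05, without Wnt11. Whether the numbers pair the arrays is not stated in the labels. Deviations of same-numbered arrays correlated at 0.02, 0.05, -0.07 and -0.12, which cannot decide it, since paired arrays need not share deviations.

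The 4 member probe sets with an unadjusted p below 0.05 became 3 to 9 without 1 array (9, or 18.8%, without Exp 1, against 4.67% of all, adding Fzd2, Fzd8, Sfrp1, Sfrp4 and Wnt9a). Dkk2 and Sfrp2 kept an unadjusted p below 0.05 in all 17 alternatives, Wif1 in 14 of 16 and Wnt11 in 8 of 16. The 2 without overlap became 1 with the filter at the 60th percentile, and ran from 2 to 5 without 1 array (5 without Ctrl 3 or Exp 1, 4 without Ctrl 2, Ctrl 4 or Exp 2). The share over all probe sets rose too, to between 4.04% and 7.20%, and without Ctrl 1 it was 4.17% for members and 7.20% for all. The median over members stayed between 0.01 and 0.10. No pathway gene of the further list was called in any alternative. Signal over background is not known here, which limits the reading of the 15 untested genes.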

Other observations

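Among the members under the filter on low signals, the fit without a filter gave 1 of 46 probe sets with an unadjusted p below 0.05, 2.17% where 4.93% of all probe sets reached it. This was Wnt4, a ligand known from kidney and gonad development. It read 7.91, 8.02, 8.09 and 8.42 in Ctrl 1 to 4 and 8.70, 8.26, 8.92 and 8.49 in Exp 1 to 4, a difference of 0.48 (SE 0.18, limma unadjusted p = 0.0296, adjusted p = 0.997). Groups did not overlap in 1 of the 46 (2.17%), that of Wnt2, where 2.52% of all probe sets in that fit had no overlap. Wnt2 read 8.23, 4.76, 8.01 and 8.31 in Ctrl and 8.52, 8.87, 8.82 and 8.46 in Exp, with Ctrl 2 lowest by far. Its difference was 1.34 (SE 0.76, limma unadjusted p = 0.117). The median SE of these 46 probe sets was 0.49, against 0.18 for the 48 tested.

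Single low values were more frequent in 2 of the arrays. Over all tested probe sets, the lowest array lay more than 1 log2 unit below the next in 72 cases for Exp 3 and 69 for Exp 4, against 33 to 46 for each of the other arrays. Members among these were Wnt7a in Exp 3 and Lrp6 and Sfrp1 (1448395_at) in Exp 4.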
